A study of Mus musculus with 16 samples.

Results

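The genes described here encode the kinetochore, the protein assembly that joins a chromosome's centromere to spindle microtubules, together with the spindle checkpoint and the chromosomal passenger complex that work on it. Of 44 genes listed by name, 41 had a probe under that name on the array, out of 34832 gene names in all, and all 41 were among the 25419 gene names tested. Mis18a, Ska2 and Ska3 had no probe under those names and are not analysed here. Per the labels, the RNA came from primary type II cells of the mouse lung (strain C57BL/6), the alveolar epithelial cells that make surfactant. There were 4 groups of 4 arrays each: hyperoxia (85% O2) for 24 h, normoxia (21% O2) for 24 h, hyperoxia (85% O2) for 6 h and normoxia (21% O2) for 6 h. The labels give no age, sex, number of animals or time in culture, and nothing says whether the 4 arrays of a group came from separate isolations, so p-values measure the spread between these samples, which may be technical.

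The kinetochore is built in layers during each cell division. The histone variant CENP-A marks the centromere, a constitutive inner network of CENP proteins binds it, and the KNL1, MIS12 and NDC80 complexes form the outer layer that grips microtubules. Unattached kinetochores recruit the checkpoint kinases and MAD and BUB proteins that delay anaphase, while Aurora B, carried by the passenger complex, releases faulty attachments. Transcripts of many of these genes accumulate in the G2 and M phases of the cycle, and in the adult lung type II cells divide mainly to replace lost epithelium.

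Each value is a log2 level, the log2 of a probe's processed signal less that array's 75th percentile, so 0 stands for the 75th percentile and a step of 1 for a change of 2-fold. A gene was represented by its brightest probe, and it is said to have risen or fallen where limma's p, adjusted over all 25419 genes, was under 0.05. Differences carry their SE, group means their SD, and each group has n = 4. Between 53.6% and 69.0% of an array's probes were well above background, the lowest share being that of normoxia 24 h replicate 3. The slides split by time, with the 24 h arrays on slide 2 and the 6 h arrays on slide 1, and the effects of time and slide cannot be told apart. Within each slide hyperoxia and normoxia took separate rows, and oxygen and row cannot be told apart either. Of 10 type II cell markers 9 were tested, and Slc34a2, a phosphate transporter gene of type II cells, was not well above background on any array.

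At 24 h most of the kinetochore set was lower in hyperoxia. Of 41 members 37 fell, where 12.8% of all genes tested fell, and 1 rose, where 15.5% of all genes rose. The median log2 difference of the members was -1.64, against 0.01 over all genes tested, and -1.51 with Cenpf held at its bound as described further on. Leaving Cenpf out, 30 members fell at least 2-fold and 16 at least 4-fold. Among the 23859 tested genes with an array well above background in both groups the shares were 1.97% and 0.465%. Every hyperoxia array lay below every normoxia array for 36 of 41 members, where this held for 15.3% of all genes. The 37 falls were called in every other setting tried and without any single array. Their sizes were less stable: with normexp background and quantile normalization, which adds an offset of 50 to every signal, 9 folds moved by over 1.5 times, all of them smaller, and 8 members in place of 16 fell at least 4-fold. In RNA from a whole culture, fewer dividing cells and less RNA per cell cannot be told apart.

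**Figure D1:**
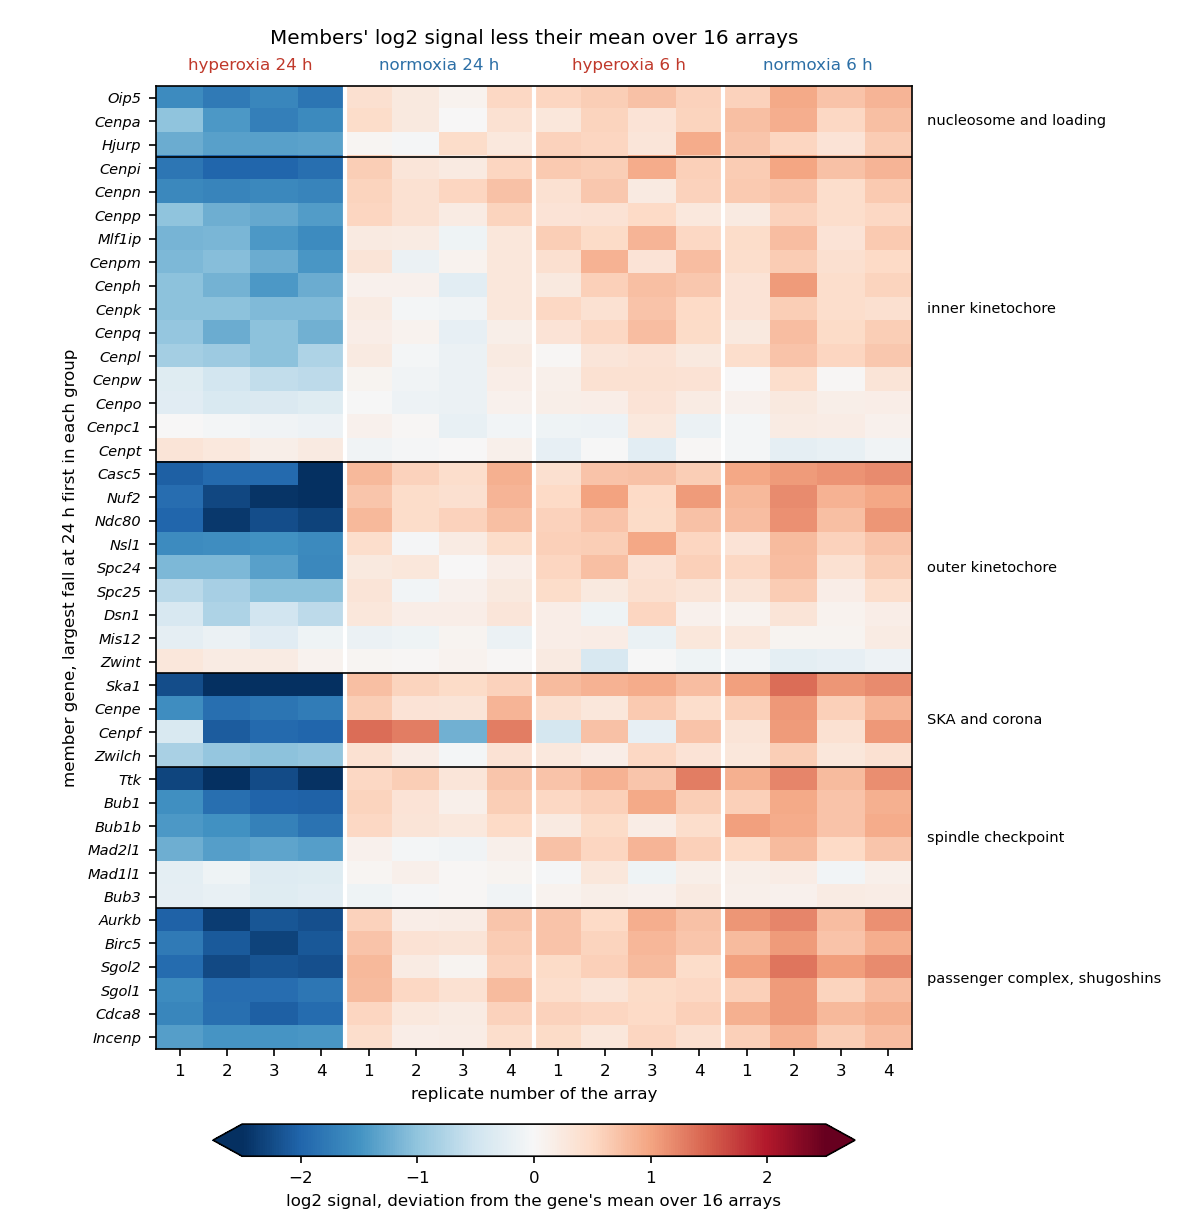
Deviation of each member's log2 signal from its own mean over 16 arrays, with arrays in columns by group and replicate number and members in rows by role. The colour scale ends at 2.5 in either direction, and stronger deviations take the end colour. The median deviation over the 41 members lay between -1.57 and -1.16 on the hyperoxia 24 h arrays and between 0.09 and 0.40 on the normoxia 24 h arrays.

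Promoter windows are shown because these genes moved together, for the member with the largest fall in 4 of the 6 role groups. Ska1 and Aurkb, which had the largest fall in the other 2 groups, had no entry in the table used, and no window is shown for those groups. They run from 250 bases before to 50 bases after the annotated start and were taken from RefSeq on GRCm38.p6. Capitals mark exact matches, on either strand, to 2 motifs known from promoters of cell cycle genes, the CHR element (TTTGAA or its complement TTCAAA) and the CCAAT box (CCAAT or its complement ATTGG). The Oip5 window lies at chr2:119618456-119618755 on the minus strand, that of Cenpi at chrX:134307834-134308133, that of Casc5 at chr2:119046869-119047168 and that of Ttk at chr9:83834439-83834738, the last 3 on the plus strand.
Oip5: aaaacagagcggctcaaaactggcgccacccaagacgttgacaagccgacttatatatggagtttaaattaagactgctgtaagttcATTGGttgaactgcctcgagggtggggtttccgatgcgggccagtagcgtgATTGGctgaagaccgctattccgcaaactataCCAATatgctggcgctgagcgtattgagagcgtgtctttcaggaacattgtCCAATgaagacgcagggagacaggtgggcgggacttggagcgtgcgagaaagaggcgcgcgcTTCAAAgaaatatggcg
Cenpi: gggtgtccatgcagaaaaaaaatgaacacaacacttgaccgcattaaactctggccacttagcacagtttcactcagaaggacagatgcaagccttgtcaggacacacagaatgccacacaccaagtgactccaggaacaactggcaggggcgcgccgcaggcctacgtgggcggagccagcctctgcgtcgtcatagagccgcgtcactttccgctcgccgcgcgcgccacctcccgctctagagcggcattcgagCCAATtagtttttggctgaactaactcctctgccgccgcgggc
Casc5: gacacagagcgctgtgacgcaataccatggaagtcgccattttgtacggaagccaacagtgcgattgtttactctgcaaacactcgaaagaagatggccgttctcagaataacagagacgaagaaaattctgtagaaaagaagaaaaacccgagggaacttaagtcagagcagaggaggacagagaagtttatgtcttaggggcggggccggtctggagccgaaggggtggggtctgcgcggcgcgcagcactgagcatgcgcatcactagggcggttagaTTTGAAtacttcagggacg
Ttk: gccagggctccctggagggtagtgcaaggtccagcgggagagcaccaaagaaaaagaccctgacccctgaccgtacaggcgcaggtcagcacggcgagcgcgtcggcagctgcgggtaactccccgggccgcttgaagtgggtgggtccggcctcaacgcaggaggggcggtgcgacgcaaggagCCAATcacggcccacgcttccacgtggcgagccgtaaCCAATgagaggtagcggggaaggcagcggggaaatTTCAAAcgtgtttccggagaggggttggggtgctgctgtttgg

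Oip5, Casc5 and Ttk each held a CHR match just downstream of the start, beginning at bases 34, 32 and 8 counted from the start, and Cenpi held none. The Oip5 window held 4 CCAAT boxes, the Ttk window 2, at bases -65 and -28, the Cenpi window 1 and the Casc5 window 0. The table had an entry for 35 members, with 40 windows. At least 1 CHR match was present in 37.5% of the members' windows and in 17.9% of all 32851 windows of this length. The CCAAT box was present in 72.5% of the members' windows and 37.4% of all windows, and both motifs together in 32.5% and 7.0%. The E2F core TTCCCGC was present in 22.5% of the members' windows and 4.6% of all, while TTGGCGC was present in 2.5% of each. Of the 36 windows of members that fell at 24 h, 15 held CHR, 26 the CCAAT box and 8 TTCCCGC. Of the 4 windows of the other members, 0, 3 and 1 held them, and 4 windows are few. These matches are a description of letters in a window, with no test.

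The genes for the centromeric nucleosome and its loading all fell, with a median log2 difference of -1.71 over 3 members. Oip5, whose protein is part of the MIS18 complex that licenses CENP-A loading, has its probe at chr2:119435859-119435918 on mm9. It read -3.22, -3.39, -3.26 and -3.46 on the hyperoxia 24 h arrays, against -1.23, -1.39, -1.55 and -1.12 on the normoxia 24 h arrays. Oip5 was thus 4.03-fold lower in hyperoxia (log2 difference -2.01 ± 0.10, adjusted p = 3.8e-09), with no overlap between the groups, and 2.63-fold lower with normexp and quantile normalization. Cenpa itself, the histone H3 variant of the centromere (chr5:30974916-30975386), read 1.41, 0.97, 0.70 and 0.82 in hyperoxia, against 2.87, 2.66, 2.42 and 2.81 in normoxia. Its groups were also apart, at 3.28-fold lower in hyperoxia (-1.71 ± 0.15, adjusted p = 6.93e-07). Hjurp encodes the chaperone that deposits CENP-A (chr1:90161678-90161737). Its levels were -2.77, -2.88, -2.88 and -2.87 in hyperoxia, against -1.48, -1.55, -1.08 and -1.26 in normoxia. The hyperoxia arrays were close together for Hjurp, and the gene was 2.84-fold lower there (-1.51 ± 0.13, adjusted p = 6.89e-07).

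Within the inner kinetochore 11 of 13 members fell and 1 rose, with a median of -1.16. The falls were uneven among transcripts whose proteins bind each other. In the group of CENP-H, CENP-I, CENP-K and CENP-M, Cenpi stood apart from its partners. On the hyperoxia 24 h arrays Cenpi (chrX:130897030-130897089) read -1.81, -2.0, -2.01 and -1.90, against 0.60, 0.29, 0.21 and 0.51 on the normoxia 24 h arrays. That made it 5.04-fold lower in hyperoxia, without overlap (-2.33 ± 0.11, adjusted p = 1.78e-09). Cenph, Cenpk and Cenpm fell less, with log2 differences of -1.28, -1.16 and -1.36, and the 95% interval of Cenpi (-2.56 to -2.11) did not overlap theirs, which reached no lower than -1.65. Such intervals cover the spread between arrays for a single probe per gene, not differences between probes.

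Cenpn and Cenpl encode partners, CENP-N being a reader of the CENP-A nucleosome. Cenpn (chr8:119464845-119464904) read -2.89, -2.93, -2.90 and -2.93 in hyperoxia at 24 h, against -0.72, -0.89, -0.75 and -0.54 in normoxia. The hyperoxia values of Cenpn were close together and far below the normoxia values, 4.55-fold lower on average (-2.19 ± 0.10, adjusted p = 1.78e-09), or 2.98-fold with normexp and quantile normalization. Cenpl fell by 0.95 ± 0.10 on the log2 scale. Among CENP-O, CENP-P, CENP-Q and CENP-U (the last under its older name Mlf1ip), Cenpp had the largest fitted fall. Its probe (chr13:49560073-49560132) read -1.33, -1.56, -1.61 and -1.74 in hyperoxia, against 0.20, 0.04, -0.13 and 0.21 in normoxia. The difference for Cenpp was 3.12-fold with no overlap (-1.64 ± 0.10, adjusted p = 2.95e-08), and 1.95-fold with the mean of its 2 probes, of which the second was too dim to be tested. Mlf1ip, Cenpq and Cenpo fell by 1.48, 1.16 and 0.29 on the log2 scale.

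Cenpt was the member that rose at 24 h. CENP-T is a DNA-binding inner protein that offers a route for recruiting NDC80 beside that through CENP-C. On the hyperoxia 24 h arrays Cenpt (chr8:108369009-108369068) read 1.88, 1.83, 1.71 and 1.78, against 1.48, 1.53, 1.56 and 1.69 on the normoxia 24 h arrays. The lowest hyperoxia value stood just above the highest normoxia value, and the rise was 1.18-fold (0.24 ± 0.08, adjusted p = 0.0309). With the replicate number as a block within time the adjusted p was 0.0521, with normexp and quantile normalization 0.0605 and without the filter 0.052. The call was also lost on leaving out hyperoxia 24 h replicate 1, 2 or 4 (adjusted p = 0.0871, 0.0707 and 0.0546) or normoxia 24 h replicate 1, 2 or 3 (0.0889, 0.0712 and 0.06). Cenpw, which encodes CENP-T's histone-fold partner, fell by 0.51 ± 0.11 on the log2 scale (adjusted p = 0.00372).

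Cenpc1, for CENP-C, the protein that bridges the CENP-A nucleosome and the MIS12 complex, did not pass the test at 24 h. Its probe (chr5:86442526-86445276) read 0.93, 0.88, 0.86 and 0.80 in hyperoxia, against 1.04, 0.96, 0.76 and 0.88 in normoxia. The groups overlapped, with a log2 difference of -0.04 and a 95% interval of -0.24 to 0.16 (adjusted p = 0.798). At 6 h Cenpc1 read 0.83, 0.82, 1.20 and 0.79 in hyperoxia, against 0.89, 1.14, 1.13 and 1.05 in normoxia.

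**Figure D2:**
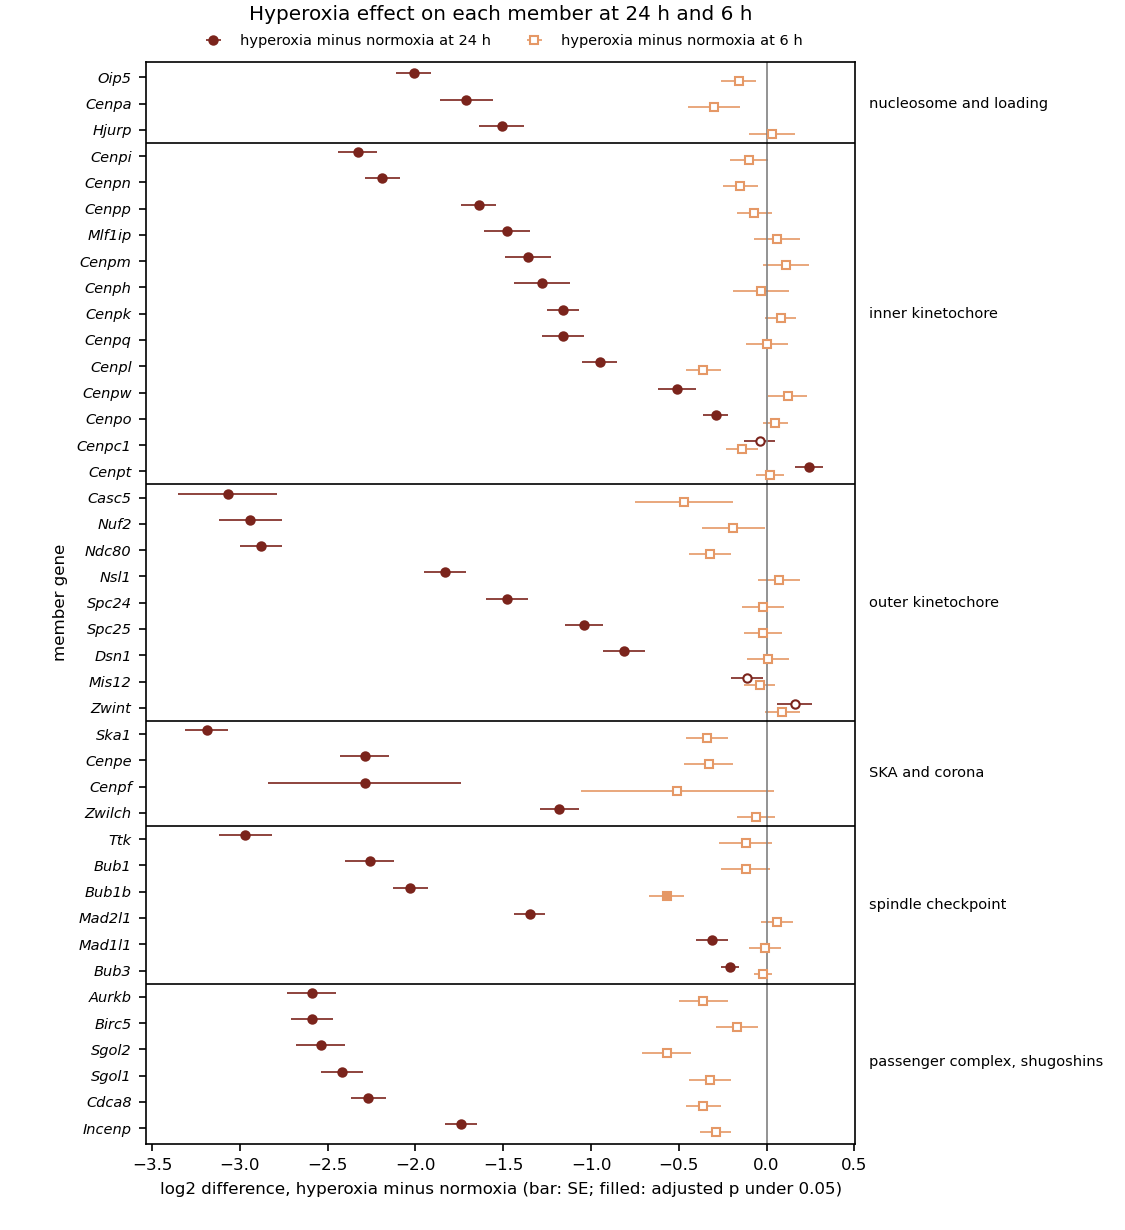
Log2 difference of hyperoxia minus normoxia for each member at 24 h (circles) and 6 h (squares), with SE bars and filled symbols where the adjusted p was under 0.05. At 24 h the circles run from -3.19 for Ska1 to 0.24 for Cenpt, and at 6 h the squares run from -0.57 to 0.12. The 24 h value of Cenpf is drawn as fitted, although its hyperoxia arrays were not well above background.

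The outer kinetochore held some of the largest falls and also members that did not pass the test: 7 of 9 fell, with a median of -1.48. Casc5, the older name of Knl1, encodes the scaffold that docks the BUB proteins. Its probe spans chr2:118914569-118919747 and read -5.09, -4.99, -4.99 and -6.66 on the hyperoxia 24 h arrays, against -2.22, -2.47, -2.61 and -2.16 on the normoxia 24 h arrays. Replicate 4 of hyperoxia was lowest and was the array on which Casc5 was not well above background. The fall was 8.38-fold without overlap (-3.07 ± 0.28, adjusted p = 1.69e-06), and the other probe of the gene gave -2.03. With normexp and quantile normalization the fall was 2.62-fold, and Nuf2 had the largest fall of the outer kinetochore.

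The NDC80 complex is a rod in which NUF2 and NDC80 form the microtubule-binding end and SPC24 and SPC25 the inner end. Nuf2 (chr1:171428989-171429048) read -2.41, -2.78, -2.96 and -3.21 in hyperoxia at 24 h, against 0.19, -0.05, -0.10 and 0.34 in normoxia. No arrays of the groups overlapped for Nuf2, which was 7.65-fold lower in hyperoxia (-2.94 ± 0.18, adjusted p = 1.84e-08). Its other 2 probes were too dim to be tested, and the mean of all 3 gave 2.01-fold. Ndc80 (chr17:71860793-71861755) read -3.07, -3.48, -3.28 and -3.38 in hyperoxia, against -0.26, -0.62, -0.50 and -0.31 in normoxia. It too had separate groups and was 7.36-fold lower (-2.88 ± 0.12, adjusted p = 8.93e-10). The log2 falls of Spc24 and Spc25 were smaller, -1.48 ± 0.12 and -1.04 ± 0.11, and their 95% intervals (-1.74 to -1.22 and -1.28 to -0.80) did not overlap those of Nuf2 (-3.31 to -2.56) and Ndc80 (-3.13 to -2.62). These intervals, too, leave out differences between probes, so they do not settle the order of the genes. With normexp and quantile normalization the folds of Nuf2 and Ndc80 were 5.02 and 4.29.

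The genes of the MIS12 complex, which links the inner and outer layers, were uneven as well. Nsl1 fell by 1.83 ± 0.12 on the log2 scale and Dsn1 by 0.81 ± 0.12, while Mis12 did not pass the test. On the hyperoxia 24 h arrays Mis12 (chr11:70839819-70839878) read -0.42, -0.34, -0.48 and -0.30, against -0.34, -0.30, -0.13 and -0.34 on the normoxia 24 h arrays. These values overlapped, and the log2 difference was -0.11 with a 95% interval of -0.30 to 0.09 (adjusted p = 0.446). The hyperoxia 6 h arrays read -0.02, -0.02, -0.37 and 0.09 for Mis12, against 0.07, -0.13, -0.12 and 0.02 on the normoxia 6 h arrays.

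Zwint encodes the KNL1 partner that helps recruit the checkpoint complex of ROD, ZW10 and ZWILCH, and its probes differed. The brightest (chr10:72137537-72137596) read 5.32, 5.24, 5.26 and 5.13 in hyperoxia at 24 h, against 5.08, 5.06, 5.12 and 5.07 in normoxia. All 4 hyperoxia values were above all normoxia values, yet the log2 difference of 0.16 did not pass (95% interval -0.07 to 0.38, adjusted p = 0.299). The second probe read 4.07, 4.12, 4.02 and 4.11 in hyperoxia, against 3.55, 3.54, 3.49 and 3.75 in normoxia. This second probe of Zwint gave a rise of 0.50 ± 0.07 in a fit over all 36713 tested probes (adjusted p = 5.5e-05). At 6 h the brightest probe of Zwint read 5.27, 4.63, 5.03 and 4.94 in hyperoxia, against 4.98, 4.79, 4.83 and 4.92 in normoxia. Over time in normoxia, 24 h against 6 h, the probes moved apart, with log2 differences of 0.20 for the brightest and -0.50 for the second.

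Zwint was the exception among members with several probes. Of 14 members with at least 2 tested probes, all tested probes were called in the same direction at 24 h for 13. The widest gap among these 13 was that of Casc5, at 1.04 on the log2 scale, followed by 0.58 for Nsl1 and 0.48 for Hjurp. For Cenpl, Zwilch, Incenp and Cdca8 the probes lay within 0.06 of each other.

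**Figure D3:**
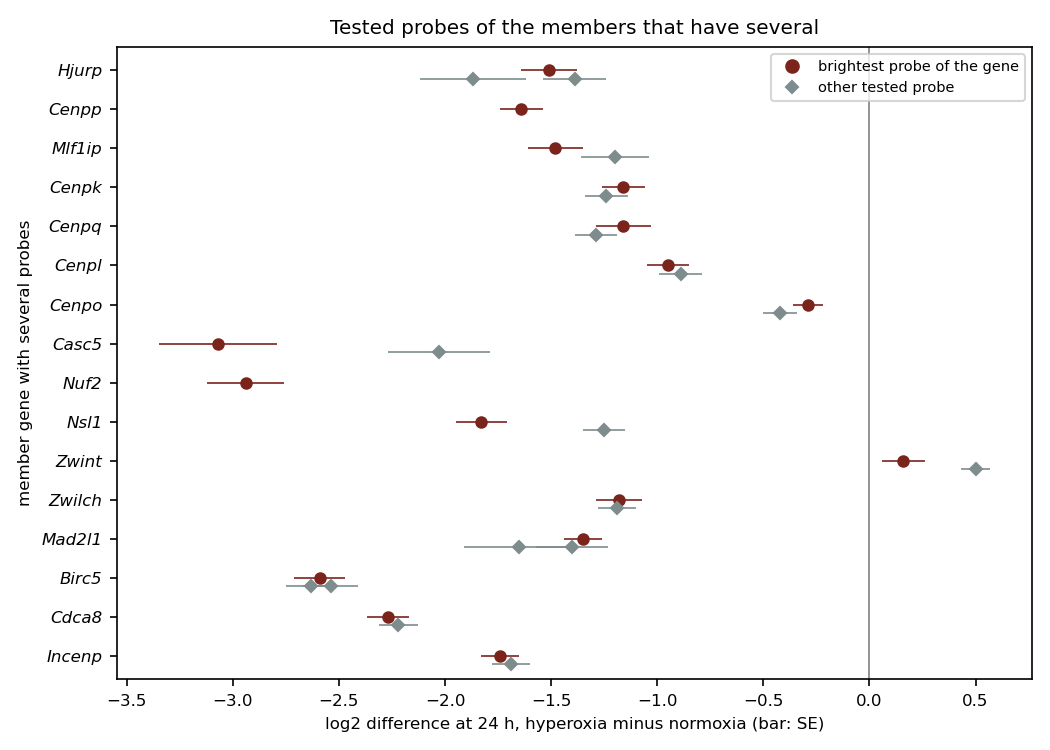
Log2 difference at 24 h, hyperoxia minus normoxia, of every tested probe of the 16 members with several probes on the array, with SE bars. Circles are the brightest probes and diamonds the others. All lie below 0 except both probes of Zwint, at 0.16 and 0.50, and Cenpp and Nuf2 have 1 tested probe each.

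All 4 members of the SKA complex and the corona fell, with a median of -2.29, or -1.73 with Cenpf at its bound. Ska1, for a subunit of the complex that tracks microtubule ends, had the largest fall of the 41 members. It read -2.32, -2.78, -2.89 and -2.86 on the hyperoxia 24 h arrays, against 0.65, 0.45, 0.35 and 0.46 on the normoxia 24 h arrays. Replicate 1 was the highest of the hyperoxia arrays and still lay far below every normoxia array, and the mean was 9.13-fold lower (-3.19 ± 0.12, adjusted p = 5.28e-10). Cenpe, the kinesin that carries chromosomes towards the spindle equator (chr3:134936387-134936446), read 1.15, 0.82, 0.86 and 0.94 in hyperoxia, against 3.31, 3.05, 3.03 and 3.54 in normoxia. The fall of Cenpe was 4.89-fold, again without overlap (-2.29 ± 0.14, adjusted p = 1.77e-08).

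Cenpf, for a large coiled-coil protein of the corona, was the member least often well above background (chr1:191464978-191465037). Its readings were -5.93, -7.63, -7.50 and -7.54 in hyperoxia at 24 h, against -4.14, -4.27, -6.75 and -4.27 in normoxia. None of the 4 hyperoxia arrays was well above background, and 3 of 4 normoxia arrays were, replicate 3 being the low one, so the groups overlapped. Measured against the lowest signal well above background, Cenpf was at least 1.77-fold lower in hyperoxia (measured means -7.15 and -4.86, adjusted p = 0.00546). With normexp and quantile normalization the fitted fall was 1.47-fold, and without normoxia 24 h replicate 3 it was 7.58-fold, against 4.90-fold as fitted over all arrays. Zwilch, for a subunit of the complex that brings dynein to the corona, fell by 1.18 ± 0.11 on the log2 scale.

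The 6 spindle checkpoint genes all fell, with a median of -1.69 and a wide range from -2.97 to -0.21. Ttk encodes the kinase MPS1, which starts checkpoint signalling. Its probe (chr9:83758726-83761669) read -5.02, -5.49, -4.95 and -5.19 in hyperoxia at 24 h, against -2.20, -2.11, -2.42 and -2.02 in normoxia. Only 2 of the 4 hyperoxia arrays were well above background for Ttk, all 4 lay below normoxia, and the fall was 7.85-fold (-2.97 ± 0.15, adjusted p = 3.98e-09). It was 2.53-fold with normexp and quantile normalization, less than that of Bub1 there (log2 difference -1.98). Bub1, a kinase that phosphorylates centromeric histone H2A (chr2:127626988-127627047), read -1.42, -1.76, -1.88 and -1.90 in hyperoxia, against 0.67, 0.46, 0.24 and 0.73 in normoxia. The groups of Bub1 were apart and differed 4.80-fold (-2.26 ± 0.14, adjusted p = 1.84e-08).

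Bub1b, for BUBR1 of the mitotic checkpoint complex (chr2:118466830-118466889), read -1.44, -1.52, -1.68 and -1.85 in hyperoxia at 24 h, against 0.52, 0.33, 0.27 and 0.50 in normoxia. It was 4.07-fold lower in hyperoxia with no overlap (-2.03 ± 0.10, adjusted p = 3.99e-09). The remaining members fell less. Mad2l1, for the MAD2 protein that inhibits CDC20, fell by 1.35 ± 0.09 on the log2 scale, Mad1l1, for its docking partner MAD1, by 0.31 ± 0.09, and Bub3, for the shared partner of BUB1 and BUBR1, by 0.21 ± 0.05.

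All 6 genes of the chromosomal passenger complex and the shugoshins fell, by log2 differences between -2.59 and -1.74 with a median of -2.48. Aurkb encodes the kinase subunit (chr11:68865105-68865164). It read -4.63, -4.97, -4.73 and -4.78 on the hyperoxia 24 h arrays, against -2.01, -2.43, -2.40 and -1.90 on the normoxia 24 h arrays. Aurkb was 6.03-fold lower in hyperoxia (-2.59 ± 0.14, adjusted p = 4.77e-09), and its groups were far apart. With normexp and quantile normalization the fall of Aurkb was 2.40-fold, and the largest in this role group was that of Birc5 (log2 difference -2.48). Birc5, for the subunit survivin that docks on phosphorylated histone H3 (chr11:117716978-117717037), read 2.33, 2.01, 1.79 and 1.99 in hyperoxia, against 4.82, 4.47, 4.43 and 4.74 in normoxia. The fall of Birc5 was 6.00-fold without overlap (-2.59 ± 0.12, adjusted p = 2.11e-09). Its 3 probes gave between -2.63 and -2.54. Sgol2, the older name of Sgo2a, encodes a protector of centromeric cohesin (chr1:58081712-58081771). Its levels were -4.03, -4.36, -4.25 and -4.29 in hyperoxia, against -1.28, -1.90, -2.04 and -1.53 in normoxia. That is a fall of 5.83-fold, with separate groups (-2.54 ± 0.14, adjusted p = 1.08e-08), or 2.84-fold with normexp and quantile normalization. Sgol1, for the other shugoshin, fell by 2.42 on the log2 scale, Cdca8, for borealin, by 2.27, and Incenp, for the scaffold subunit, by 1.74.

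**Figure D4:**
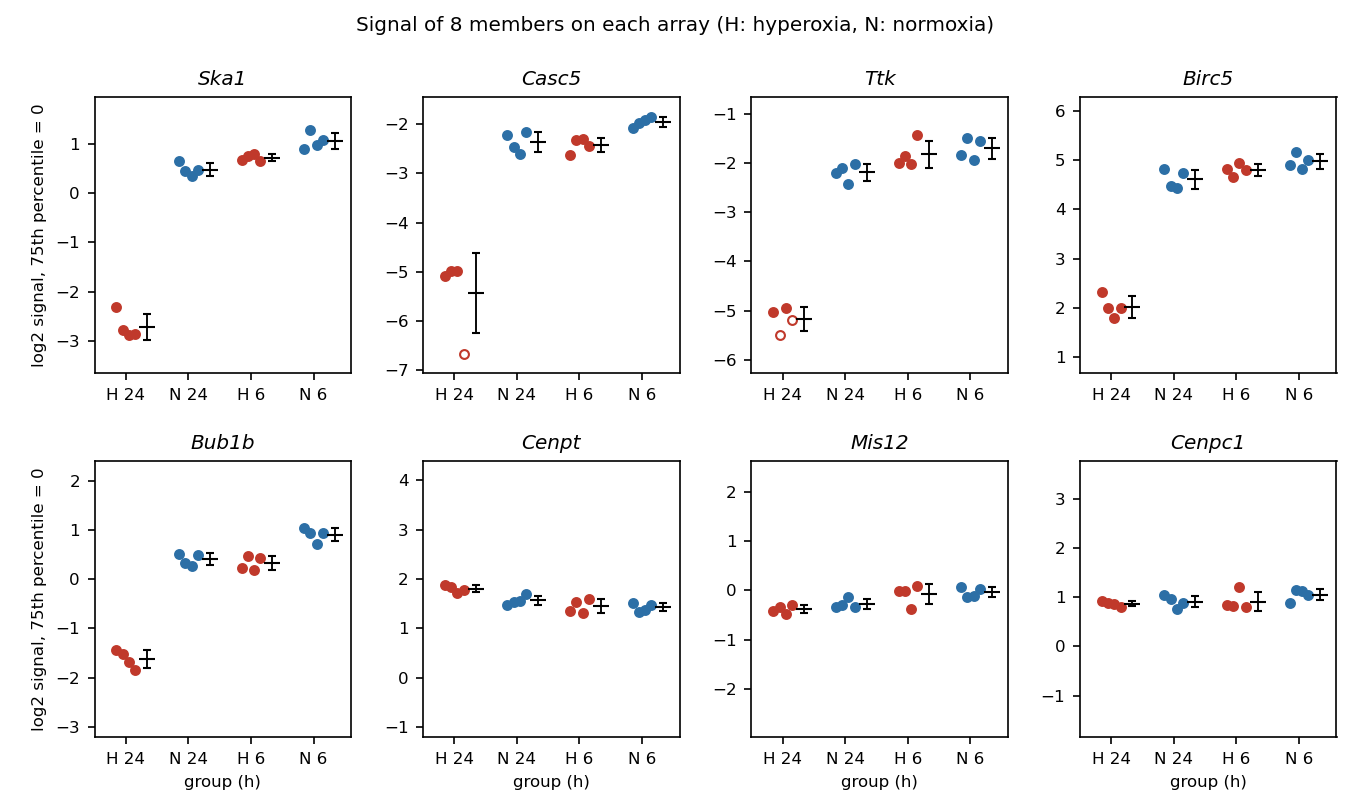
Log2 signal of 8 members on each array, with 0 at the array's 75th percentile. H stands for hyperoxia, N for normoxia, the numbers for hours, points for arrays (open where the probe was not well above background) and black bars for the mean and SD. Each panel has its own vertical range of the same span. In Ska1, Casc5, Ttk, Birc5 and Bub1b the hyperoxia 24 h arrays stand below all others, while in Mis12 and Cenpc1 the 24 h groups overlap.

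At 6 h the differences of the same genes were small. Of 41 members 1 fell and 0 rose in limma's test, where 0.0905% and 0.236% of all genes did. At an unadjusted p under 0.05, 10 members were lower and 0 higher. Shares of all genes at an unadjusted p were not counted, here or further on. The median log2 difference was -0.10, against 0.01 over all genes. On leaving out single arrays it ran from -0.13 (without normoxia 6 h replicate 1) to -0.05 (without normoxia 6 h replicate 2). The member that fell was Bub1b, which read 0.22, 0.47, 0.19 and 0.43 on the hyperoxia 6 h arrays, against 1.03, 0.93, 0.72 and 0.94 on the normoxia 6 h arrays. The groups did not overlap, and hyperoxia was 1.49-fold lower (-0.57 ± 0.10, adjusted p = 0.0265). That call was lost in 3 of 11 other settings, with adjusted p of 0.0547 without the filter, 0.125 in a fit of the 6 h arrays alone and 0.0557 with the replicate number as a block within time. It was also lost without hyperoxia 6 h replicate 1 or 4 (0.0827 and 0.0528) and without normoxia 6 h replicate 1, 2 or 4 (0.098, 0.0871 and 0.106). The log2 difference of Bub1b stayed between -0.64 and -0.52 throughout.

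By role, the 6 h medians were -0.34 in the passenger complex and shugoshins, where 6 of 6 were below 0, and -0.34 in the SKA complex and corona, where 4 of 4 were. In the inner kinetochore the median was 0.00 and 6 of 13 were below 0, and in the outer kinetochore it was -0.02. Of all 25419 genes tested, 11748 were below 0. Members were read on the same arrays, so these counts are not counts of separate samples. Every hyperoxia array lay below every normoxia array for 9 of 41 members, where this held for 2.00% of all genes. These were Cenpl, Ndc80, Casc5, Ska1, Bub1b, Incenp, Cdca8, Sgol1 and Sgol2. Sgol2 had the same log2 difference as Bub1b, -0.57 ± 0.14, and did not pass (adjusted p = 0.169). For 39 of 41 members the 95% interval of the 6 h difference lay between -1 and 1 on the log2 scale, and the other 2 were Casc5 (-1.08 to 0.14) and Cenpf (-1.68 to 0.66).

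The change in the hyperoxia effect between the times was tested directly as the 24 h effect less the 6 h effect. It was lower for 34 of 41 members and higher for 0 in limma's test, where this held for 5.64% and 6.64% of all genes. At an unadjusted p under 0.05, 37 members were lower and 0 higher. The median was -1.47, against -0.01 over all genes. Ska1 and Ttk had the most negative value, -2.85 each, with SE of 0.17 and 0.22, and that of Ttk was -1.28 with normexp and quantile normalization. For Bub1b, the gene that fell at both times, the value was -1.45 ± 0.15 (adjusted p = 1.64e-05). The 7 members that did not pass were Cenpc1, Cenpt, Mis12, Zwint, Cenpf, Bub3 and Mad1l1. In the fits run, Cenpf passed without normoxia 24 h replicate 3, and Mad1l1 with array weights or without hyperoxia 6 h replicate 3. Cenpo, the smallest of the 34 (-0.34 ± 0.10, adjusted p = 0.033), was not called without hyperoxia 24 h replicate 2 or 3, normoxia 24 h replicate 1 or 4, hyperoxia 6 h replicate 4, or normoxia 6 h replicate 1, 3 or 4 (adjusted p up to 0.0824), nor with median centring or without the filter. With the mean of all probes, which takes in their untested dim probes, the calls of Nuf2 and Cenpp were lost (-1.09 and -0.76, adjusted p = 0.0578 and 0.0664).

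In normoxia many members were lower at 24 h than at 6 h, by smaller amounts. Of 41 members 24 fell and 0 rose in limma's test, where 23.5% and 20.6% of all genes did. At an unadjusted p under 0.05, 26 members were lower and 0 higher. The median log2 difference, 24 h against 6 h, was -0.36, against -0.02 over all genes. With each array centred on its median in place of its 75th percentile, 7 of 41 members fell and 2 rose. Of all 25419 genes, 3410 fell and 10106 rose under that centring. The medians were then -0.15 for the members and 0.19 for all genes. That centring also moved the share of higher calls over all genes to 74.8%, against 46.7% as reported. The falls of Cenpl, Ska1, Bub1b, Mad2l1, Aurkb, Cdca8 and Sgol2 were called in every setting and without any single array. Without normoxia 6 h replicate 2 the number that fell was 14, where 5523 of all 25419 genes fell.

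Sgol2 had the largest fall in normoxia, with -1.28, -1.90, -2.04 and -1.53 at 24 h, against -1.08, -0.77, -1.06 and -0.91 at 6 h. The times did not overlap for Sgol2, and the level at 24 h was 1.66-fold lower (-0.73 ± 0.14, adjusted p = 0.00116). Aurkb read -2.01, -2.43, -2.40 and -1.90 in normoxia at 24 h, against -1.49, -1.36, -1.81 and -1.44 at 6 h. Here too every 24 h array was below every 6 h array (1.58-fold, -0.66 ± 0.14, adjusted p = 0.00155). Mad2l1 (chr6:66490836-66490895) read 2.54, 2.39, 2.34 and 2.56 in normoxia at 24 h, against 2.92, 3.23, 2.93 and 3.12 at 6 h. The 24 h arrays of Mad2l1 were all the lower ones, by 1.51-fold (-0.59 ± 0.09, adjusted p = 0.000179).

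In hyperoxia 38 of 41 members were lower at 24 h than at 6 h, where 27.3% of all genes were lower, and 2 were higher, where 25.0% of all genes were. The median was -1.87, against -0.02 over all genes. Ska1 was 10.8-fold and Ttk 10.1-fold lower at 24 h, and Cenpf was at least 1.26-fold lower by its bound. That bound is not firm, because only 2 of 4 hyperoxia 6 h arrays were well above background for Cenpf. With normexp and quantile normalization the folds were 7.14 for Ska1 and 2.77 for Ttk, and the call of Cenpf was lost (adjusted p = 0.0632). The 2 that rose were Cenpt (0.35 ± 0.08, adjusted p = 0.00162) and, by its brightest probe, Zwint (0.27 ± 0.10, adjusted p = 0.0399). The second probe of Zwint was called in the opposite direction (log2 difference -0.20 ± 0.07, adjusted p = 0.0195 in limma's fit over all tested probes). Whether Zwint rose over time in hyperoxia is thus not settled. The rise of Cenpt was called in every setting, while that of Zwint was lost in 5 other settings, without hyperoxia 24 h replicate 1, 2 or 3 and without hyperoxia 6 h replicate 2 or 4 (adjusted p up to 0.713). Under median centring the calls of Mis12 and Mad1l1 were lost, and 71.8% of the calls over all genes were higher, against 47.8% as reported. This comparison shares arrays with those already described, so it is no separate evidence for the same falls.

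A list of 39 further centromere, kinetochore, cohesin, condensin and checkpoint genes, all tested, was read in the same way. At 24 h 28 fell and 2 rose, where 12.8% and 15.5% of all genes tested did, and the median was -1.06. At 6 h 1 fell, where 0.0905% of all genes fell. The 3 largest fitted falls at 24 h were those of Kif2c, Ncapg and Nek2. Kif2c, a microtubule-depolymerising kinesin gene of the centromere, fell by 3.18 ± 0.20 on the log2 scale (adjusted p = 2.58e-08), with a log2 difference of -2.19 under normexp and quantile normalization. Nek2, a centrosomal kinase gene, fell by 2.56 ± 0.11 (adjusted p = 8.93e-10). Ncapg, a condensin subunit gene, was well above background on 0 of 4 hyperoxia arrays and on 4 of 4 normoxia arrays, so it was at least 4.84-fold lower in hyperoxia (measured means -6.14 and -3.38, adjusted p = 1.84e-07), and its place among these 3 is not fixed. Pttg1, for securin, which holds separase inactive until anaphase, rose by 0.30 ± 0.08 (adjusted p = 0.0136). Wapal, for a factor that releases cohesin, rose by 0.40 ± 0.07 (adjusted p = 0.000372).

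General proliferation markers moved with the kinetochore genes. Of 7 such markers, Mki67, Top2a, Pcna, Mcm2, Mcm5, Rrm2 and Tyms, all 7 fell at 24 h, and 0 were called at 6 h (0 at an unadjusted p under 0.05). Mki67, the antigen of cycling cells, averaged 0.64 ± 0.28 in hyperoxia at 24 h and 3.80 ± 0.31 in normoxia at 24 h, while Tyms, for thymidylate synthase, averaged -0.75 ± 0.09 in hyperoxia and -0.48 ± 0.10 in normoxia. The summed linear level of the 7 was 21.3 to 25.6 on the hyperoxia 24 h arrays and 63.1 to 79.7 on the normoxia 24 h arrays. It was 86.7 to 98.7 on the hyperoxia 6 h arrays and 87.2 to 103 on the normoxia 6 h arrays. Their part in the members' falls was not tested.

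Markers of other cells that the culture could hold were read in the same way. All 8 fibroblast and smooth muscle markers were tested and well above background on every 24 h array, and their summed level was 1460 to 1570 in hyperoxia and 1570 to 1800 in normoxia at 24 h. None of the 8 was called between oxygen groups at 24 h (1 lower and 1 higher at an unadjusted p under 0.05). Over time, 24 h against 6 h, 5 rose in normoxia and 6 in hyperoxia, where 20.6% and 25.0% of all genes rose. The summed level of these 8 markers at 6 h was 868 to 1140 in hyperoxia and 920 to 1100 in normoxia. Type I cell, endothelial and lymphocyte markers had 0 called at 24 h between oxygen groups (0, 0 and 1 at an unadjusted p under 0.05). Macrophage, neutrophil, club and ciliated cell markers had 1 higher each. Of the type II cell markers 4 fell and 1 rose at 24 h, where 12.8% and 15.5% of all genes did. Lamp3, Sftpb, Etv5 and Lpcat1 fell (log2 differences -1.03, -0.95, -0.79 and -0.28), and Abca3 rose (0.68). The surfactant genes Sftpa1, Sftpc and Sftpd were not called (0.79, 0.45 and 0.45), nor was Napsa (-0.08). The summed level of the type II markers at 24 h was 29.3 to 36.4 in hyperoxia and 39.5 to 45.1 in normoxia. At 6 h that sum was 56.2 to 80.4 in hyperoxia and 60.0 to 73.9 in normoxia. Over time 7 of 9 type II markers fell in hyperoxia and 6 of 9 in normoxia, where 27.3% and 23.5% of all genes fell. These falls stand beside the members' own falls over time. In normoxia 1 type II marker, Etv5, rose over time (log2 difference 0.61). The summed club cell markers were 0.979 to 1.17 in hyperoxia and 0.599 to 0.831 in normoxia at 24 h, against 22.7 to 46.1 in hyperoxia and 22 to 44.6 in normoxia at 6 h, and both tested club cell markers fell over time in each oxygen group. Ciliated cell and neutrophil markers had 2 lower over time in each oxygen group, of 3 and 4 tested, macrophage markers 2 of 7 and type I cell markers 3 of 5. Of the type I markers 2 rose in hyperoxia and 1 in normoxia over time, and 1 macrophage marker, Cd68, rose in hyperoxia (log2 difference 0.65). The part of any of these in the members' values was not tested. Which cells of the culture held the members' RNA cannot be told from these arrays.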

How the data were processed

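Cy3-labelled cRNA made from total RNA, per the labels, was hybridised to 16 one-colour arrays. Per the file headers, the authors deposited each array's scan from Agilent Feature Extraction 10.7.3.1 with the protocol GE1_107_Sep09, and its processed signal is an intensity after background subtraction and detrending. The authors also deposited a table of log2 values of 43964 probes, whose normalization is not given in the sources used here; it served as an alternative.

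Spots of a probe were averaged (62976 spots, 59305 of them non-control, 55681 probes), and each array's 75th percentile was subtracted on the log2 scale. A gene name, as the array file gives it, was represented by its brightest probe over 16 arrays, and it entered the tests if some group had 3 or more of its 4 arrays well above background for that probe. The comparisons used limma 3.58.1 under R 4.3.3: 1 mean per group over 16 arrays, 12 residual degrees of freedom, empirical Bayes moderation, two-sided p with Benjamini-Hochberg adjustment over 25419 genes, threshold 0.05. The fit was checked on simulated data. Where a group had no array well above background, the fold is given as a lower bound, taken against the lowest signal that was. The number of arrays limits precision.

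The members, role groups, related list and markers were chosen with earlier results of these data known. Per-array values are given for members called at 6 h, for the 3 largest falls and the largest rise of each role group at 24 h, for members not called at 24 h and for the 3 largest normoxia changes over time. Of the 41 members, 4 carry another current symbol. Probe positions are on mm9, per the file headers, and promoter windows on GRCm38.p6.

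The replicate number is the slide column. Same-numbered arrays of the 2 oxygen groups deviated together at 24 h, with correlations of 0.25, 0.34, 0.24 and 0.26, each over 0.1, the limit for treating them as pairs. At 6 h they were 0.25, 0.25, 0.35 and 0.09. By this limit the numbers were taken as possible pairs at 24 h. Because number and slide column coincide, pairs of samples and slide columns cannot be told apart. The main fit had no term for the replicate number. Alternatives were the background correction, the scaling, the authors' table, the filter, the mean of all probes, fits of the compared groups alone, replicate blocks, array weights and leaving out each array.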

Additional observations from a re-analysis of the deposited data

Results flagged for a closer look

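The hyperoxia effect differed between the times, by the test of the 24 h effect less the 6 h effect, for 34 members, all more negative at 24 h. In the nucleosome and loading genes the log2 values were -1.85 for Oip5, -1.54 for Hjurp and -1.42 for Cenpa. In the inner kinetochore they were -2.23 for Cenpi, -2.04 for Cenpn, -1.58 for Cenpp, -1.54 for Mlf1ip, -1.47 for Cenpm, -1.25 for Cenph, -1.23 for Cenpk, -1.17 for Cenpq, -0.63 for Cenpw, -0.59 for Cenpl and -0.34 for Cenpo. In the outer kinetochore they were -2.75 for Nuf2, -2.60 for Casc5, -2.56 for Ndc80, -1.90 for Nsl1, -1.46 for Spc24, -1.01 for Spc25 and -0.82 for Dsn1. Of the SKA complex and corona, Ska1 had -2.85, Cenpe -1.96 and Zwilch -1.12. Of the checkpoint, Ttk had -2.85, Bub1 -2.15, Bub1b -1.45 and Mad2l1 -1.41. Of the passenger complex and shugoshins, Birc5 had -2.41, Aurkb -2.23, Sgol1 -2.10, Sgol2 -1.97, Cdca8 -1.92 and Incenp -1.46.

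Single arrays stood apart from the other 3 of their group in 7 of 164 member and group combinations by Dixon's criterion, and chance alone flags about 5% of groups. For Cenpf they were hyperoxia 24 h replicate 1, at -5.93 with the next array at -7.50, and normoxia 24 h replicate 3, at -6.75 with the next at -4.27. Casc5 on hyperoxia 24 h replicate 4 was at -6.66, with the next array at -5.09, and that array was not well above background for it. Hjurp on hyperoxia 24 h replicate 1 was at -2.77, with the next at -2.87. On hyperoxia 6 h replicate 3, Cenpc1 was at 1.20 with the next at 0.83, and Cenpi was at 0.91 with the next at 0.64. Cenpw on hyperoxia 6 h replicate 1 was at 2.09, with the next at 2.33.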

How the results depend on the processing

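The number of members that fell at 24 h was 37 in all 11 other settings and in all 8 fits without an array. No called value of a named member reversed. By over 1.5 times, normexp and quantile normalization moved 9 called folds at 24 h, 11 over time in hyperoxia and 8 in the difference, all towards 0, and the mean of all probes moved 2, 3 and 3. At 6 h the count of 1 lower member became 0 without the filter, 0 in the fit of the groups compared alone and 0 with the replicate block within time. It became 4 with array weights (Bub1b, Cenpl, Incenp and Sgol2), and 0 to 1 on leaving out arrays. The count of 1 higher member at 24 h became 0 with normexp background and quantile normalization, 0 without the filter, 0 with the replicate block within time, 2 with the mean of all probes (Cenpt and Zwint) and 0 to 1 on leaving out arrays. Beyond Bub1b at 6 h and Cenpt at 24 h, the replicate block within time changed no member's call, and the replicate block over all arrays changed no count of members by over 1.5 times. Over time in normoxia the lower members numbered 7 with median centring and 14 to 24 on leaving out arrays. Higher ones, 0 as reported, numbered 2 with median centring (Cenpt and Zwint) and 1 in the fit of the groups compared alone (Zwint). Over time in hyperoxia the 2 higher members became 1 with quantile normalization, the authors' table, no filter, the mean of all probes and the fit of the groups compared alone, and 1 to 2 on leaving out arrays. The difference between times had 32 to 35 lower members over the other settings and 33 to 35 on leaving out arrays. Why these counts moved was not tested. Over all genes, lower calls at 6 h were 23, and between 8 and 263 in other settings, with 61 without hyperoxia 6 h replicate 3. In the difference they were 1433, with 2605 under array weights and 2264 without hyperoxia 6 h replicate 3. Of all calls at 6 h 53.5% were higher with array weights (303 higher and 263 lower) and 61.2% with normexp and quantile normalization, against 72.3% as reported. Median centring gave 10687 higher and 4204 lower calls over all genes in hyperoxia over time, against 6354 and 6951 as reported. In normoxia it gave 10106 and 3410, against 5244 and 5981, and the all-gene medians moved to 0.20 in hyperoxia and 0.19 in normoxia. Signal over background limits Cenpf, and in hyperoxia at 24 h also Casc5, Ttk and Ncapg.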
